A study of Homo sapiens with 15 samples.

Results

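The genes described here are 40 ribosome biogenesis factors among the 12261 genes of the deposited table. They comprise 13 genes of the small-subunit processome, 6 of late small-subunit assembly, 12 of large-subunit assembly, 7 of small nucleolar ribonucleoproteins (snoRNPs) and 2 nucleolar chaperones. They were taken from the table by symbol, and all 40 were found and passed the filter of at least 1 TPM, a unit of transcript abundance scaled for length and library size, in at least 3 fitted libraries. The list was drawn up with results of these libraries in view, and both total RNA and IP values entered that choice. Every difference, call and p-value of these genes is therefore a description of these libraries and not independent support for a pattern.

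HEK-293 Trex, the cell line used throughout, derives from human embryonic kidney and switches a transgene on when doxycycline is given. The cells expressed CLIP-tagged UPF1 isoform 1 (UPF1-1), CLIP-tagged UPF1 isoform 2 (UPF1-2) or GFP, and every culture received doxycycline at 200 ng/mL. CLIP is a protein tag that binds a label or resin covalently, and the isoforms differ in the regulatory loop of UPF1, the RNA helicase at the centre of nonsense-mediated mRNA decay. The 5 groups of 3 libraries were RNA that co-purified with UPF1-1 (UPF1-1 IP), RNA that co-purified with UPF1-2 (UPF1-2 IP), and total RNA of the UPF1-1, UPF1-2 and GFP cells. Since every tagged protein was made in a line of its own, line and protein cannot be told apart. No IP of GFP was analysed here, so recovery has total RNA as its only baseline, with no mock purification. In bulk RNA, fewer cells expressing a transcript and less of it per cell cannot be told apart either.

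Ribosomes are built in the nucleolus, where RNA polymerase I makes a long precursor of the ribosomal RNAs. snoRNPs of the box C/D class guide ribose methylation, and those of the box H/ACA class guide conversion of uridine to pseudouridine. The small-subunit processome forms around the precursor with the U3 snoRNP, and separate sets of factors cut, fold and export the small and the large subunit. The genes for these factors are expressed in growing cells and many are textbook targets of MYC, which binds the E-box sequence CACGTG.

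Promoter sequences (250 bases before to 50 after the start, RefSeq, GRCh38.p14) were held for 36 of the 40 genes, all but NOP58, RRP12, BOP1 and NOLC1. Of these genes 5 had more than 1 promoter, and here and in the backgrounds a gene counted if any of its promoters matched. CACGTG, which reads the same on both strands, occurred in 17 of these 36 genes (47.2%). The backgrounds were 8.78% of the 27305 genes of the promoter table and 13.2% of the 8417 genes of the deposited table with a promoter. In 16 of the 36 (44.4%) it lay within 40 bases of the start, against 2.71% and 4.34% in those backgrounds. Only 4 of 61 cytosolic ribosomal protein genes with a promoter held it (6.56%). A match is a description of the letters and not a binding site. The deposited TPM values were made with hg19, so the GRCh38.p14 coordinates locate the promoters and not the measured transcripts. The following 30-base windows, read in the direction of transcription, show the element in 8 members whose RNA levels are described further on. Capitals mark CACGTG, which begins between positions -10 and 15 relative to the start.
FBL, chr19:39846356-39846385 (minus strand): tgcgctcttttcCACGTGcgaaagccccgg
RRP9, chr3:51941892-51941921 (minus strand): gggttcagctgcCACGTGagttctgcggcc
UTP20, chr12:101280083-101280112 (plus strand): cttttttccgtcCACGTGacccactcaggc
UTP18, chr17:51260538-51260567 (plus strand): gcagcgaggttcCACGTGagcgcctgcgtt
MRTO4, chr1:19251807-19251836 (plus strand): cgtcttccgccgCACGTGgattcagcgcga
NOL6, chr9:33473894-33473923 (minus strand): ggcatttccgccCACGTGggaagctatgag
NOP14, chr4:2963374-2963403 (minus strand): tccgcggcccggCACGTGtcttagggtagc
WDR43, chr2:28894658-28894687 (plus strand): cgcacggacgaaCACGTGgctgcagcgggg
The printed set includes FBL and RRP9, recovered below the library median with both isoforms, and NOL6, WDR43 and NOP14, recovered above it with both. In UPF1-1 IP the 17 genes with the element had a median log2 ratio to total RNA of -0.14 (range -2.29 to 0.83), and the 19 without it a median of 0.10 (-1.37 to 1.55). With UPF1-2 the medians were 0.30 with the element and 0.55 without it, and these ranges overlapped as well.

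In total RNA these genes covered a wide range of levels. NPM1, an abundant nucleolar chaperone, was the highest in every group, at 1156 ± 287 TPM in UPF1-1 IP, 1346 ± 255 TPM in UPF1-2 IP, 242 ± 22.1 TPM in UPF1-1 total RNA, 263 ± 46.9 TPM in UPF1-2 total RNA and 269 ± 24.0 TPM in GFP total RNA (SD, n = 3 each). UTP15 was the lowest in total RNA of both UPF1 lines, at 2.03 ± 0.0493 TPM in UPF1-1 and 2.29 ± 0.785 TPM in UPF1-2. GAR1 was the lowest in GFP total RNA and in both IPs. The median over the 40 genes of their mean TPM was 58.7 in UPF1-1 IP, 77.0 in UPF1-2 IP, and 9.69, 9.50 and 9.11 in UPF1-1, UPF1-2 and GFP total RNA, against 14.6, 13.8, 1.99, 1.97 and 1.87 for all genes of the table in the same order. Together they held 0.902% ± 0.083 of the listed TPM in UPF1-1 IP and 1.07% ± 0.06 in UPF1-2 IP. In total RNA their share was 0.513% ± 0.032 in UPF1-1, 0.565% ± 0.055 in UPF1-2 and 0.543% ± 0.032 in GFP (SD, n = 3 each). Each TPM belongs to 1 listed transcript per gene, so reads from a gene's other transcripts are not in it, and genes with processed pseudogenes such as NPM1 may share reads with those copies.

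As checks on the labels, the transcript of UPF1 stood at 129 ± 49.8 TPM in cells given UPF1-1 and 104 ± 57.9 TPM in those given UPF1-2, while GFP cells, which keep their own UPF1, had 5.20 ± 2.93 TPM (total RNA; SD, n = 3 each). Of 6 HEK-293 markers 5 were in the table, all but NEFM. In total RNA VIM had 113 to 184 TPM, KRT18 19.2 to 42.0, KRT8 6.37 to 27.3, NEFL 6.57 to 18.8 and TUBB3 2.82 to 6.23. Of 8 markers of other cell types 2 were in it, EPCAM at 2.62 to 6.79 TPM and HBA1 at 1.85 to 7.22 TPM. These ranges overlapped those of TUBB3, NEFL and KRT8. The median gene was higher in IP than in total RNA, by 2.40 with UPF1-1 and 2.38 with UPF1-2 on the log2 scale, and all IP ratios are given after the library medians were set equal. Without that step all 40 members stand above 0 with both isoforms, at medians of 2.53 with UPF1-1 and 2.87 with UPF1-2. The listed transcripts held 15.8% ± 1.77 of all TPM in UPF1-1 total RNA and 54.2% ± 13.7 in UPF1-1 IP. With UPF1-2 they held 14.6% ± 3.80 and 54.6% ± 13.2 (SD, n = 3 each). Uncentred ratios include this rise of the listed transcripts as a whole, so they do not measure enrichment of the members.

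Replicate 3 stood apart from replicates 1 and 2 in all 5 groups, and some of these genes moved strongly with it. NCL (ENSG00000115053), the gene of nucleolin, an abundant nucleolar RNA-binding protein, had 23.2, 17.6 and 254 TPM in UPF1-1 IP and 44.6, 30.3 and 359.5 TPM in UPF1-2 IP. In total RNA it had 7.51, 7.88 and 39.0 TPM in UPF1-1 cells, 7.19, 9.01 and 54.3 TPM in UPF1-2 cells and 8.54, 9.43 and 44.7 TPM in GFP cells. Replicate 3 was therefore the highest of its group each time, whatever the line or fraction. With library medians equal, replicate 3 exceeded the mean of replicates 1 and 2 by 2.19 on the log2 scale for NCL, 1.57 for LAS1L, 1.31 for DKC1 and 1.25 for GAR1, as means over the 5 groups. At the other end were WDR75 at -1.23, NIP7 at -0.58 and WDR36 at -0.51. This shift was above 0 in all 5 groups for 23 of the 40 genes (28.5% of all genes) and below 0 in all 5 for 12 (40.2%). Over the 40 genes the shift in 1 group correlated with that in another at r = 0.82 to 0.95 over 10 pairs of groups, which share the replicate number. Replicates 1 and 2 differed by a median of 0.073, against 0.45 for replicate 3. The fits compare libraries within a replicate number, so a shift that both groups of a comparison share cancels in the differences that follow, and one that they do not share stays in them. For WDR75 the shift was -2.48 in GFP total RNA and -0.65 in UPF1-1 total RNA. For NCL it was 2.83 in UPF1-1 IP and 1.91 in UPF1-1 total RNA. What set replicate 3 apart was not tested.

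**Figure D1:**
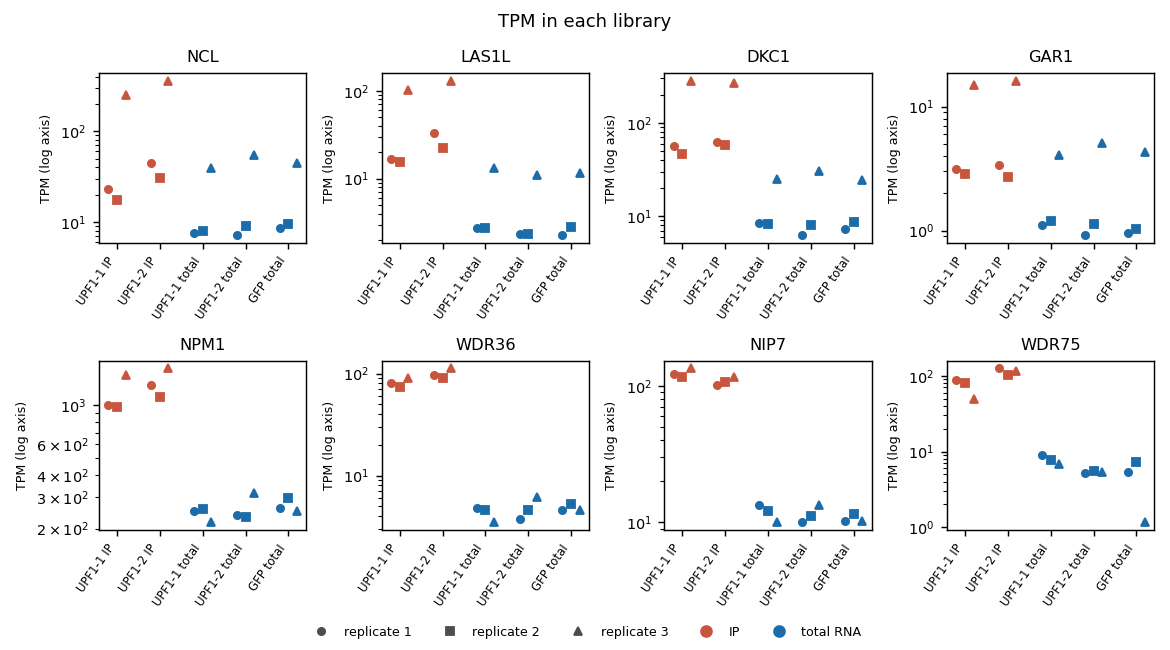
TPM on a log axis (y) of 8 members that shifted most with replicate 3 or are described in the text, in each of the 15 libraries (x, by group), with a symbol for each replicate, IP in red and total RNA in blue. NCL and GAR1 are highest in replicate 3 of every group, and WDR75 has its lowest total RNA value, 1.17 TPM, in replicate 3 of the GFP cells.

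The comparison of UPF1-1 with GFP total RNA sets these transcripts in cells that made UPF1-1 against cells that made GFP. By limma's fit over all 9325 genes with Benjamini-Hochberg adjustment, 5 of the 40 were called at an adjusted p below 0.05, 1 higher and 4 lower. Over all genes tested the share called was 16.2%, with 8.38% higher and 7.79% lower. RRP12 (ENSG00000052749), an assembly and export factor of pre-ribosomes, was the one called higher. It had 3.85, 3.57 and 8.80 TPM in UPF1-1 cells, against 2.56, 2.90 and 7.26 TPM in GFP cells, and differed by 0.25 ± 0.059 (SE) on the log2 scale (adjusted p = 0.021). The ranges of the groups overlapped, and the UPF1-1 value was the higher within each replicate number.

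Box C/D snoRNP transcripts were among those lower in UPF1-1 cells. NOP58 (ENSG00000055044), a core protein of box C/D snoRNPs, had 7.04, 6.58 and 7.79 TPM in UPF1-1 cells, against 8.03, 7.99 and 10.9 TPM in GFP cells. Its log2 difference was -0.39 ± 0.086 (SE), with an adjusted p of 0.018, and the groups did not overlap. FBL (ENSG00000105202), the methyltransferase of the same particles, had 50.6, 48.8 and 62.3 TPM in UPF1-1 cells, against 57.1, 61.2 and 75.7 TPM in GFP cells. It differed by -0.35 ± 0.080, with an adjusted p of 0.021, and the ranges overlapped because replicate 3 of the UPF1-1 cells exceeded GFP replicates 1 and 2. The remaining core protein, NOP56, differed by 0.040 ± 0.056 and was not called.

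UTP20, a large scaffold of the processome, and NCL also fell. UTP20 (ENSG00000120800) had 2.76, 2.87 and 3.22 TPM in UPF1-1 cells, against 2.82, 3.57 and 4.21 TPM in GFP cells, a log2 difference of -0.30 ± 0.062 (SE; adjusted p = 0.014). For NCL the difference was -0.29 ± 0.054 (adjusted p = 0.0091). In both genes the ranges overlapped and the UPF1-1 value was the lower within each replicate number. Of the members that were not called, WDR75 (ENSG00000115368) had the highest log2 difference, 0.88 ± 0.33 (adjusted p = 0.099). WDR75 belongs to the early-binding UTP-A complex of the processome. It had 9.01, 7.75 and 6.75 TPM in UPF1-1 cells, against 5.36, 7.24 and 1.17 TPM in GFP cells, so its difference rests mainly on the low value of GFP replicate 3. Without that library it was 0.31. WDR18, a partner of the nuclease LAS1L, had 15.6, 14.5 and 34.8 TPM in UPF1-1 cells and 13.7, 12.7 and 23.1 TPM in GFP cells, differed by 0.23 ± 0.12 and was not called.

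The calls of this comparison depended on the fit. With no replicate block none of the 40 was called, leaving out replicate 1 left NOP58 alone, leaving out replicate 2 left none and leaving out replicate 3 gave 6. Without GFP replicate 3 only NCL was called. By the sleuth test in the authors' deposited table none of the 40 reached a q-value below 0.05 in UPF1-1 against GFP, and 0.368% of all genes did. The lowest unadjusted p of a member in that table was 0.051, for NOP58.

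In UPF1-2 against GFP total RNA none of the 40 was called by limma, and 0.375% of all genes were (0.279% higher, 0.0965% lower). At an unadjusted p below 0.05 there were 2. The median over the 40 was -0.021 on the log2 scale, against -0.016 for all genes. NOP56 came closest, with 56.9, 61.6 and 83.0 TPM in UPF1-2 cells, against 47.9, 53.3 and 61.1 TPM in GFP cells, a log2 difference of 0.27 ± 0.056 (SE; adjusted p = 0.12). It was the higher in UPF1-2 cells within each replicate number. WDR75 differed by 0.45 ± 0.33, again through GFP replicate 3, and by -0.12 without it. TSR1, a late small-subunit assembly factor that resembles a GTPase, had 4.44, 5.21 and 11.9 TPM in UPF1-2 cells and 4.53, 5.22 and 9.06 TPM in GFP cells, and differed by 0.089 ± 0.054. The lowest values were those of FBL (-0.20 ± 0.080), WDR18 (-0.20 ± 0.12) and NOL6, the processome subunit of the UTP-C complex (-0.13 ± 0.066). FBL had 43.8, 58.3 and 71.6 TPM in UPF1-2 cells, against 57.1, 61.2 and 75.7 TPM in GFP cells. WDR18 had 9.03, 8.91 and 33.7 TPM in UPF1-2 cells, against 13.7, 12.7 and 23.1 TPM in GFP cells, and NOL6 had 2.01, 2.42 and 5.78 TPM, against 2.31, 2.80 and 5.61 TPM. All 3 overlapped between the lines. The authors' deposited table had no member below a q-value of 0.05 here, with 0.0327% of all genes passing, and its lowest unadjusted p of a member was 0.25, for NOP56. Both UPF1 lines were set against the same GFP libraries, so the UPF1-1 and UPF1-2 values share them.

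**Figure D2:**
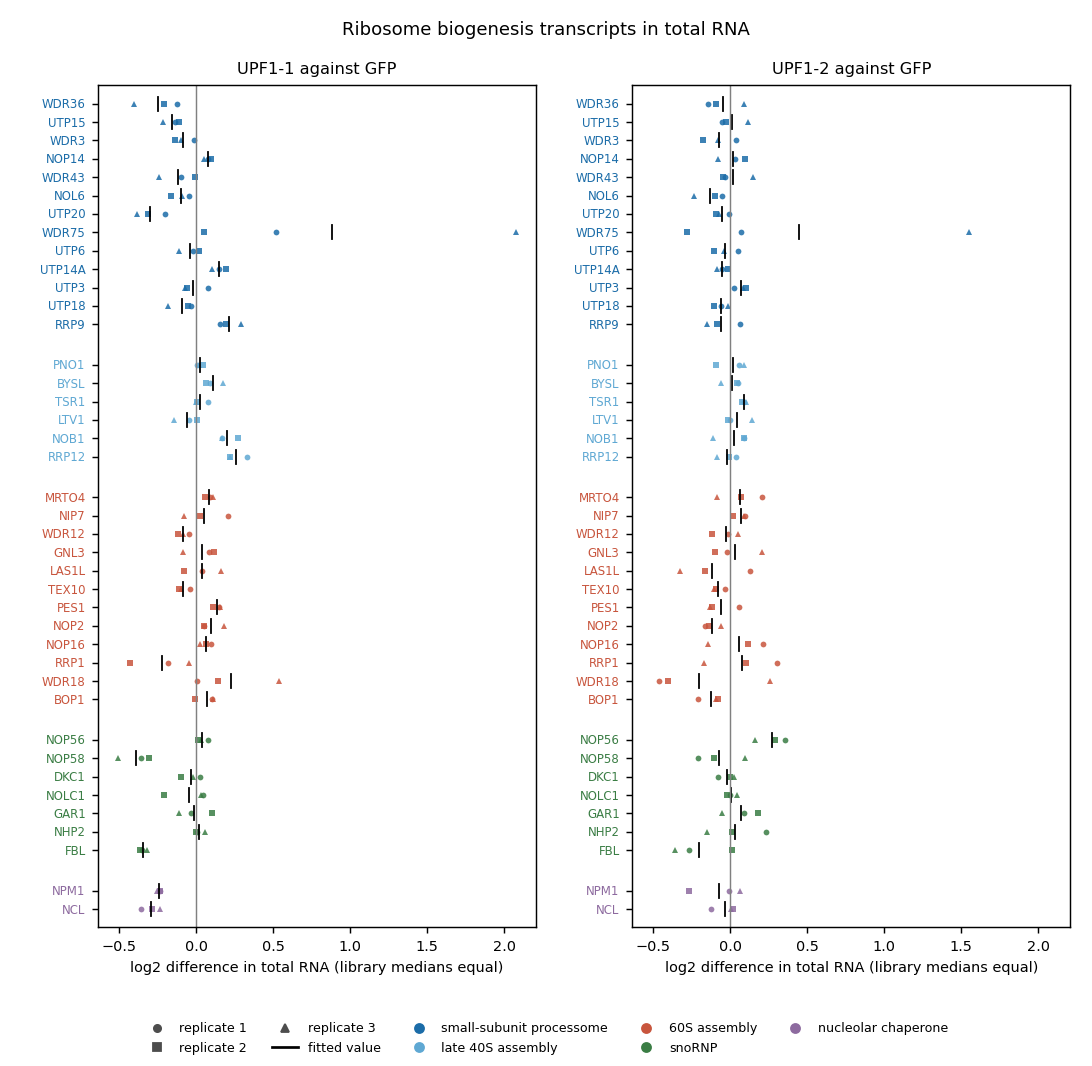
Log2 difference in total RNA with library medians equal (x) of each member (y), for UPF1-1 against GFP on the left and UPF1-2 against GFP on the right. Symbols are the replicates, black bars the fitted values and colours the roles. The fitted values lie between -0.39 and 0.88 for UPF1-1 and between -0.20 and 0.45 for UPF1-2, and the largest of each belongs to WDR75, through replicate 3.

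The UPF1 lines were also compared with each other in total RNA. Of the 40 genes 6 were called, 3 higher and 3 lower in UPF1-1 cells, and over all genes 9.51% were called (5.49% higher, 4.02% lower). RRP12 was higher by 0.28 ± 0.059 (SE, log2; adjusted p = 0.026), at 3.85, 3.57 and 8.80 TPM in UPF1-1 cells, against 2.40, 2.69 and 8.34 TPM in UPF1-2 cells. RRP9, a protein of the U3 snoRNP, had 4.90, 4.72 and 9.70 TPM in UPF1-1 cells, against 3.63, 3.44 and 8.35 TPM in UPF1-2 cells, a difference of 0.27 ± 0.071 (adjusted p = 0.048). NOP2, a methyltransferase of large-subunit rRNA, had 10.6, 10.3 and 17.2 TPM in UPF1-1 cells, against 7.32, 8.13 and 17.1 TPM in UPF1-2 cells, a difference of 0.22 ± 0.054 (adjusted p = 0.042). The ranges of all 3 overlapped because of replicate 3, and within each number the UPF1-1 value was the higher.

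Those lower in UPF1-1 cells were NCL at -0.26 ± 0.054 (adjusted p = 0.024), UTP20 at -0.25 ± 0.062 (0.043) and NOP56 at -0.23 ± 0.056 (0.04), with limma's adjusted p. UTP20 had 2.76, 2.87 and 3.22 TPM in UPF1-1 cells, against 2.55, 3.12 and 4.93 TPM in UPF1-2 cells. NOP56 had 57.4, 55.3 and 64.5 TPM in UPF1-1 cells, against 56.9, 61.6 and 83.0 TPM in UPF1-2 cells. The raw TPM of both overlapped between the lines. RRP1, a factor of large-subunit assembly, was among the 3 lowest without being called: it had 10.8, 10.1 and 25.1 TPM in UPF1-1 cells, against 12.4, 13.5 and 27.1 TPM in UPF1-2 cells (-0.30 ± 0.12). NOP58 (-0.32 ± 0.086), WDR75 (0.44 ± 0.33) and WDR18 (0.43 ± 0.12) were not called either. None of the 40 was called with no replicate block, or when replicate 1 or replicate 2 was left out. Without replicate 3, 3 were called, of which 1 was among the 6, and NCL, NOP2, RRP12, RRP9 and UTP20 were lost. In the authors' deposited table no member had a q-value below 0.05 and 0.139% of all genes did. The lowest unadjusted p of a member there was 0.11, for RRP9.

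RNA that co-purified with UPF1 was compared with total RNA of the same isoform and replicate number. With UPF1-1, 15 of the 40 genes were called above and 17 below the library median, where over all genes 74.7% were called (30.8% above, 43.9% below). With UPF1-2, 23 were called above and 8 below, where over all genes 75.7% were called (31.5% above, 44.2% below). The median log2 ratio of the 40 was -0.026 with UPF1-1 and 0.34 with UPF1-2, against -0.16 and -0.15 for all genes. Ratios of single genes ranged from -2.29 to 1.55 with UPF1-1 and from -1.86 to 1.77 with UPF1-2. Over the 40 genes the ratios with the isoforms, which came from different libraries, correlated at r = 0.94 (Spearman's rho = 0.94). Both isoforms gave calls above the median for 15 genes and below it for 8, and UTP14A and NOP2 were called below it with UPF1-1 and above it with UPF1-2. The calls were 23 to 34 with UPF1-1 and 24 to 33 with UPF1-2 when a replicate was left out, and 21 and 17 with no replicate block.

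**Figure D3:**
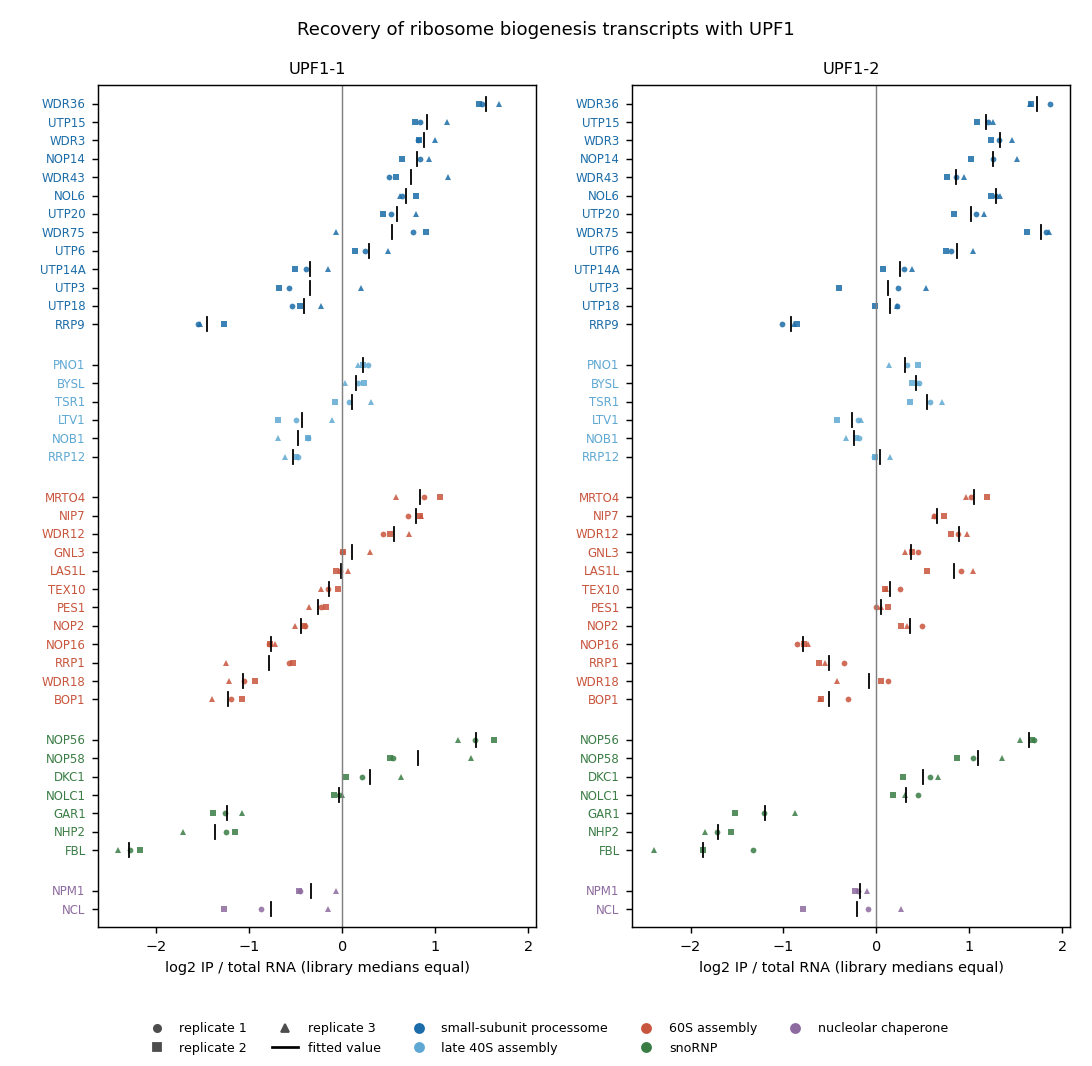
Log2 ratio of IP to total RNA with equal library medians (x) of each member (y), with UPF1-1 and UPF1-2, grouped by role (40S is the small and 60S the large subunit). Symbols are the replicates and black bars the fitted values. WDR36, NOP56 and WDR3 lie to the right and FBL, NHP2, GAR1 and RRP9 to the left of 0 with both isoforms, and without the equal medians all members lie above 0.

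The listed processome transcripts were mostly recovered above the median. Of the 13, 9 were called above and 3 below with UPF1-1 (median 0.59), and 10 above and 1 below with UPF1-2 (median 1.02). WDR36 (ENSG00000134987), a subunit of the UTP-B complex, had 80.4, 73.6 and 91.5 TPM in UPF1-1 IP, against 4.76, 4.61 and 3.48 TPM in UPF1-1 total RNA. In UPF1-2 IP it had 96.4, 89.9 and 113 TPM, against 3.73, 4.60 and 6.09 TPM in UPF1-2 total RNA. Its log2 ratios were 1.55 ± 0.080 and 1.73 ± 0.080 (SE), with limma's adjusted p of 7.8e-07 and 5.1e-07. WDR3 is another UTP-B subunit. It had 97.8, 93.0 and 158 TPM in UPF1-1 IP, against 9.74, 9.57 and 10.5 TPM in UPF1-1 total RNA, and 135, 118 and 198 TPM in UPF1-2 IP, against 8.19, 8.51 and 12.7 TPM in UPF1-2 total RNA. The ratios were 0.88 ± 0.076 with UPF1-1 and 1.33 ± 0.076 with UPF1-2. The other UTP-B members listed were recovered less, with UTP6 at 0.29 and 0.86 and UTP18 at -0.41 and 0.14, the last of which was not called.

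The UTP-A complex binds the precursor early. Its members among the 40, UTP15, WDR43 and WDR75, were called above the median with both isoforms. UTP15 (ENSG00000164338) had 23.9, 22.8 and 38.5 TPM in UPF1-1 IP, against 2.02, 2.08 and 1.99 TPM in UPF1-1 total RNA, a log2 ratio of 0.91 ± 0.088 (SE). With UPF1-2 the ratio was 1.18 ± 0.088. WDR43 stood at 0.74 ± 0.12 with UPF1-1 and 0.86 ± 0.12 with UPF1-2. WDR75 had 87.5, 80.4 and 49.3 TPM in UPF1-1 IP, against 9.01, 7.75 and 6.75 TPM in UPF1-1 total RNA, and 126, 104 and 116 TPM in UPF1-2 IP, against 5.19, 5.53 and 5.41 TPM in UPF1-2 total RNA. Its ratio was 0.53 ± 0.16 with UPF1-1 (adjusted p = 0.017) and 1.77 ± 0.16 with UPF1-2, the highest of the 40.

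RRP9 went the other way. RRP9 (ENSG00000114767) had 9.50, 10.8 and 24.8 TPM in UPF1-1 IP, against 4.90, 4.72 and 9.70 TPM in UPF1-1 total RNA, a log2 ratio of -1.45 ± 0.083 (SE; adjusted p = 1.3e-06). In UPF1-2 IP it had 12.3, 11.8 and 25.6 TPM, against 3.63, 3.44 and 8.35 TPM in UPF1-2 total RNA (-0.92 ± 0.083, adjusted p = 1.6e-05). RRP9 was thus higher in IP than in total RNA in TPM, but by less than the median gene. Of the remaining processome genes NOP14, NOL6 and UTP20 were called above the median with both isoforms, at 0.80, 0.69 and 0.59 with UPF1-1. UTP3 was called with neither.

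Transcripts of snoRNP proteins lay at both ends. NOP56 (ENSG00000101361) had 848, 907 and 1105 TPM in UPF1-1 IP, against 57.4, 55.3 and 64.5 TPM in UPF1-1 total RNA, and 1163, 1115 and 1326 TPM in UPF1-2 IP, against 56.9, 61.6 and 83.0 TPM in UPF1-2 total RNA. Its log2 ratios were 1.44 ± 0.087 and 1.64 ± 0.087 (SE), with adjusted p of 1.8e-06 and 9.7e-07. FBL, of the same particle, had 56.6, 56.8 and 84.2 TPM in UPF1-1 IP, against 50.6, 48.8 and 62.3 TPM in UPF1-1 total RNA, and 109.9, 89.8 and 74.5 TPM in UPF1-2 IP, against 43.8, 58.3 and 71.6 TPM in UPF1-2 total RNA. Its ratios, -2.29 ± 0.17 and -1.86 ± 0.17 (adjusted p 4.9e-06 and 1.5e-05), were the lowest of the 40 with both isoforms. NOP58, the remaining core protein, stood at 0.81 ± 0.17 with UPF1-1 and 1.09 ± 0.17 with UPF1-2. The box C/D core proteins, which act in 1 particle, thus lay at both ends of the list.

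In the box H/ACA class NHP2 (ENSG00000145912) had 145, 149 and 273 TPM in UPF1-1 IP, against 63.0, 63.3 and 125 TPM in UPF1-1 total RNA, and 114, 111 and 194 TPM in UPF1-2 IP, against 59.98, 58.6 and 127 TPM in UPF1-2 total RNA. Its log2 ratios were -1.37 ± 0.11 and -1.71 ± 0.11 (SE). GAR1 (ENSG00000109534) had 3.14, 2.88 and 15.0 TPM in UPF1-1 IP, against 1.11, 1.19 and 4.05 TPM in UPF1-1 total RNA, and 3.37, 2.70 and 16.1 TPM in UPF1-2 IP, against 0.924, 1.14 and 5.07 TPM in UPF1-2 total RNA, with ratios of -1.25 ± 0.13 and -1.20 ± 0.13. GAR1 was near the pseudocount of 0.5 TPM in several total RNA libraries. The pseudocount shrinks its rise in TPM from total RNA to IP. It also shrinks that of the median gene, which stood at 1.76, 1.71 and 2.35 TPM in UPF1-1 total RNA. The distance of GAR1 below the median gene may therefore be off in either direction. DKC1, the pseudouridine synthase of these particles, stood at 0.29 with UPF1-1, where it was not called, and 0.51 with UPF1-2, where it was. NOLC1, a chaperone of snoRNPs, was at -0.040, not called, and 0.31, called.

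NOP56, NOP58, NCL, DKC1, GNL3, WDR43 and TSR1 carry snoRNA genes in their introns. Of these 7, 3 were called above and 1 below the median with UPF1-1, and 6 above and 0 below with UPF1-2. The shares over all genes were 30.8% above and 43.9% below with UPF1-1, and 31.5% and 44.2% with UPF1-2. The values belong to the 1 listed transcript of each gene. Whether that transcript is the full spliced mRNA was not checked, and the snoRNAs were not measured here.

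Of the 12 large-subunit genes 3 were called above and 6 below the median with UPF1-1 (median -0.20), and 6 above and 3 below with UPF1-2 (median 0.25). All-gene shares were 30.8% above and 43.9% below with UPF1-1, and 31.5% and 44.2% with UPF1-2. MRTO4, a placeholder for a ribosomal stalk protein on the precursor, was the highest of them at 0.83 ± 0.098 with UPF1-1 and 1.05 ± 0.098 with UPF1-2 (SE). The PeBoW complex, which is needed for large-subunit rRNA processing, was split, with WDR12 at 0.55, PES1 at -0.26 and BOP1 at -1.23 with UPF1-1. With UPF1-2 WDR12 was at 0.88, PES1 at 0.054 (not called) and BOP1 at -0.51. NOP16 and RRP1 were called below the median with both isoforms, at -0.76 and -0.79 with UPF1-1 and -0.79 and -0.51 with UPF1-2. TEX10, which binds WDR18 and LAS1L, was called with neither.

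Late small-subunit factors stayed closer to the median gene. Of the 6, 1 was called above and 3 below with UPF1-1, and 3 above and 1 below with UPF1-2, within -0.53 to 0.22 and -0.26 to 0.55. Among all genes 30.8% were called above and 43.9% below with UPF1-1, and 31.5% and 44.2% with UPF1-2. NOB1, the nuclease that makes the final cut at the end of small-subunit rRNA, was called below the median with both, at -0.48 and -0.25. PNO1, its partner, was called above it with both, at 0.22 and 0.30. The chaperone genes NCL and NPM1 were called below it with UPF1-1, at -0.77 and -0.33, and with UPF1-2 had -0.21 and -0.18, not called.

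The isoforms were compared directly by the difference of their recoveries, which is formed from the same ratios. Of the 40 genes 12 were called, 0 higher and 12 lower with UPF1-1 than with UPF1-2, where over all genes 10.7% were called (4.43% higher, 6.27% lower). The median of the 40 was -0.32 on the log2 scale, against -0.043 for all genes. The value was below 0 for 37 of the 40 (55.3% of all genes) and below 0 in every replicate for 28 (33.9% of all genes). The 12 called comprised 7 processome genes, 4 large-subunit genes and RRP12. Related lists leaned the same way. The isoform difference was below 0 for 73 of 77 cytosolic ribosomal protein genes (median -0.25) and 52 of 74 mitochondrial ones (median -0.11). Of another 124 pathway genes, described further on, 97 lay below 0 (median -0.24).

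WDR75 had the largest difference, -1.23 ± 0.23 (SE; adjusted p = 0.021), with -1.06, -0.72 and -1.92 in replicates 1, 2 and 3. WDR18 had 41.6, 40.3 and 108 TPM in UPF1-1 IP, against 15.6, 14.5 and 34.8 TPM in UPF1-1 total RNA, and 64.8, 54.1 and 139 TPM in UPF1-2 IP, against 9.03, 8.91 and 33.7 TPM in UPF1-2 total RNA. Its difference was -0.99 ± 0.16 (adjusted p = 0.016). LAS1L had 16.9, 15.7 and 103 TPM in UPF1-1 IP, against 2.74, 2.74 and 13.3 TPM in UPF1-1 total RNA, and 32.7, 22.5 and 129 TPM in UPF1-2 IP, against 2.31, 2.32 and 11.1 TPM in UPF1-2 total RNA, a difference of -0.84 ± 0.14 (adjusted p = 0.017). In WDR75, WDR18 and LAS1L UPF1-1 gave the lower recovery in every replicate. Part of the WDR75 and WDR18 differences lay in total RNA, where both were higher in UPF1-1 than in UPF1-2 cells by 0.44 and 0.43, neither called.

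The highest differences were those of NHP2 at 0.34 ± 0.16 (SE), NIP7, a factor that binds large-subunit precursors, at 0.14 ± 0.097 and NOP16 at 0.029 ± 0.094, none called. NIP7 had 124, 118 and 136 TPM in UPF1-1 IP, against 13.5, 12.2 and 10.0 TPM in UPF1-1 total RNA, and 101, 107 and 116 TPM in UPF1-2 IP, against 10.1, 11.1 and 13.4 TPM in UPF1-2 total RNA. NOP16 had 24.4, 23.0 and 61.3 TPM in UPF1-1 IP, against 7.41, 7.18 and 13.7 TPM in UPF1-1 total RNA, and 23.7, 23.3 and 48.0 TPM in UPF1-2 IP, against 6.47, 6.81 and 14.3 TPM in UPF1-2 total RNA. These are the only members at or above 0. The calls of the isoform difference depended on the fit and on the libraries kept. None of the 40 was called with no replicate block, without replicate 1 or without replicate 2, and 14 were called without replicate 3 (1 higher, 13 lower).

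**Figure D4:**
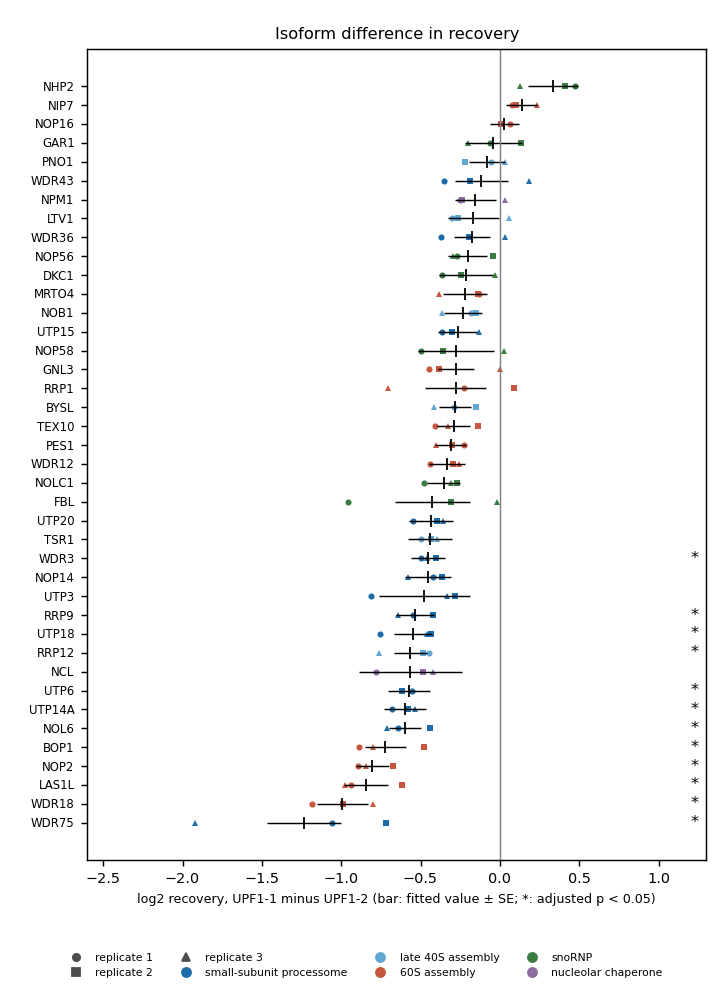
Difference of recovery, UPF1-1 minus UPF1-2, on the log2 scale (x) of each member (y), with a symbol for each replicate, a bar for the fitted value with its SE and a star where limma's adjusted p was below 0.05. Of the 40 fitted values 37 lie left of 0, from -1.23 for WDR75, and 3 lie right of it, up to 0.34 for NHP2.

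Recovery was set against transcript length. A relative effective length was computed from the mean natural log of estimated counts and TPM of libraries not used in the ratio, with the median gene at 1. With UPF1-1 the log2 ratio of the 40 genes correlated with log2 length at r = 0.49 (Spearman's rho = 0.46), against r = 0.52 (rho = 0.47) over 11948 genes. With UPF1-2 r was 0.56 (rho = 0.55), against 0.54 (rho = 0.49) over 11934 genes. Without the extremes NOP56 and FBL it was 0.54 with UPF1-1 and 0.62 with UPF1-2. Members with a relative length under 0.5 had a median ratio of -1.02 with UPF1-1 (5 of 6 below 0), those of 0.5 to 1 a median of -0.26 (10 of 17 below 0), and the longer ones 0.29 (6 of 17 below 0). FBL, at a relative length of 0.183, and NHP2, at 0.324, were among the shortest and had ratios far below the median. NOP56, at 0.246, was as short and had the highest ratio but that of WDR36 with UPF1-1. Members of similar length therefore differed widely, and whether length sets the recovery was not tested. These lengths are those of the listed transcripts, and whether those are the full mRNAs was not checked.

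**Figure D5:**
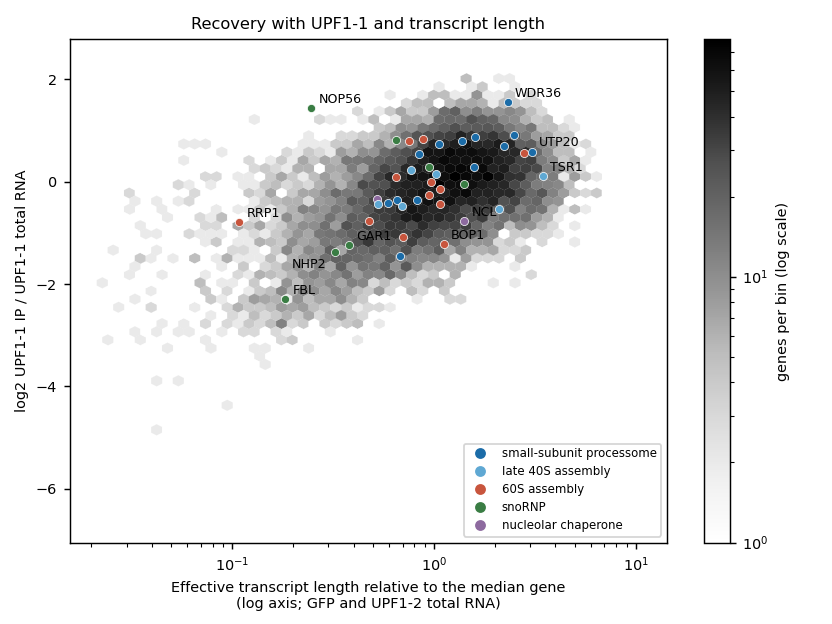
Log2 ratio of IP to total RNA with library medians equal (y) against relative effective length on a log axis (x), with UPF1-1, for the 40 members (points coloured by role) over all genes (grey, darker where more genes fall). Members with short listed transcripts such as FBL, NHP2 and GAR1 lie low and longer ones such as WDR36 high (r = 0.49). NOP56, also with a short listed transcript, lies high.

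The structural proteins of the ribosome were set beside these factors in the IPs. All 77 cytosolic ribosomal protein genes were called below the library median with both isoforms, at medians of -2.53 with UPF1-1 and -2.27 with UPF1-2, and with uncentred values their medians lay at 0.028 and 0.26, with 38 and 25 of the 77 below 0. Of 74 mitochondrial ribosomal protein genes 10 were called above and 53 below with UPF1-1 (median -0.91), and 15 above and 51 below with UPF1-2 (median -0.76). Among all genes 30.8% were called above and 43.9% below with UPF1-1, and 31.5% and 44.2% with UPF1-2. The difference between these lists and the 40 genes was not tested. Uncentred medians were 1.65 and 1.77 for the mitochondrial proteins and 2.53 and 2.87 for the 40 genes, with UPF1-1 and UPF1-2 in that order.

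Another 124 genes of the pathway were listed by function and are not among the 40. Of these, 55 were called above and 44 below with UPF1-1 (median 0.17), and 69 above and 35 below with UPF1-2 (median 0.38). Over all genes 30.8% were called above and 43.9% below with UPF1-1, and 31.5% and 44.2% with UPF1-2. Other small-subunit factors ran from NOC4L (-1.89) and WBSCR22 (-1.54) to KRR1 (1.84) and FCF1 (1.88) with UPF1-1, and other large-subunit factors from GLTSCR2 (-1.75) and EBNA1BP2 (-1.70) to RRP15 (1.43) and NMD3 (1.54), which exports the large subunit. Among other snoRNP factors NOP10 (-1.47), another box H/ACA core protein, and TCOF1 (-1.34) were lowest, and ZNHIT6 (0.74) and RPAP3 (1.16) highest. NOP10 therefore lay below the median with NHP2 and GAR1. For RNA polymerase I the lowest were ZNRD1 (-2.03) and POLR1D (-1.42) and the highest RRN3 (1.27) and TWISTNB (1.71). The RNA exosome ran from EXOSC4 (-1.70) and C1D (-1.21) to DIS3 (1.14) and EXOSC2 (1.21).

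In the isoform difference 3 of these 124 genes were called higher and 22 lower with UPF1-1, at a median of -0.24. Over all genes 4.43% were called higher and 6.27% lower. In total RNA, of 122 tested, 4 were called higher and 10 lower for UPF1-1 against GFP (8.38% and 7.79% of all genes). For UPF1-2 against GFP 0 were called (0.375% of all genes). In UPF1-1 against UPF1-2, 3 were called higher and 3 lower (5.49% and 4.02% of all genes).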

How the data were processed

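RNA was depleted of rRNA with Ribo-Zero and made into TruSeq libraries, per the labels' protocols. Per the submitters' processing notes, cutadapt, kallisto, sleuth and hg19 were used, without versions. The authors deposited TPM per library for 1 Ensembl transcript per gene. The deposited table also held the ratio of IP to total TPM, log2 fold columns, sleuth p-values and q-values, test scores, and effects and mean estimated counts on the natural log scale. Its read depth per library was not given, and the members had geometric means of 223 to 46619 estimated counts.

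Values were taken as log2(TPM + 0.5) with library medians set equal, for genes that reached 1 TPM in 3 or more of the fitted libraries. Trended limma fits (limma 3.58.1, R 4.3.3) covered 9 total RNA libraries (9325 genes) and 12 libraries of the UPF1 lines (11969 genes), with Benjamini-Hochberg adjustment over all genes, 2-sided tests and a threshold of 0.05. The pseudocount shrinks the fold changes of low genes before centring. The replicate number was a block in total RNA, and the isoform together with the replicate number in the IP fit. Same-numbered libraries deviated together (r = 0.70 to 0.95 over 9 pairs in total RNA, 0.57 to 0.91 over 18 in the IP fit). Pairs of libraries with different numbers ran from -0.89 to 0.80 in total RNA and from -0.86 to 0.74 in the IP fit. These ranges overlap, so the correlations do not show that each number marks a matched set. The deposited ratios were formed within the number. Nothing in the labels says whether replicates were separate cultures, so p-values cover the spread of these libraries, which may be technical. Alternatives were no block, no or another centring, other pseudocounts, no filter and left-out libraries. Members, lists and this design were chosen with earlier results of these data known. Genes with values per library were the members at the extremes of each comparison and those called in total RNA, and of each other list the 2 highest and 2 lowest with UPF1-1.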

Additional observations from a re-analysis of the deposited data

Results flagged for a closer look

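Recovery with UPF1-1 and UPF1-2 differed by limma's adjusted p below 0.05 for 12 of the 40 genes, each lower with UPF1-1. On the log2 scale (UPF1-1 minus UPF1-2) the differences in the processome were -1.23 for WDR75, -0.60 for NOL6, -0.60 for UTP14A, -0.57 for UTP6, -0.55 for UTP18, -0.54 for RRP9 and -0.45 for WDR3. Among large-subunit factors they were -0.99 for WDR18, -0.84 for LAS1L, -0.80 for NOP2 and -0.72 for BOP1. The late factor RRP12 differed by -0.56. The same contrast called 10.7% of all genes, and none of the 12 was called without the replicate block. The group of 3 libraries is too small for a check of outlying samples.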

How the results depend on the processing

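With no replicate block the members called were 0 for UPF1-1 against GFP (5 with the block), 0 for UPF1-1 against UPF1-2 (6), 21 with UPF1-1 IP (32), 17 with UPF1-2 IP (31) and 0 in the isoform difference (12). Without the equal library medians, with or without the block, they were 0, 0 and 0 for the total RNA comparisons with UPF1-1 and the isoform difference, and in the IPs FBL (0.27 with UPF1-1, 0.66 with UPF1-2), RRP9 (1.11, 1.61), NHP2 (1.19, 0.82) and GAR1 (1.32, 1.33) reversed, since the all-gene median itself moves by over 2. Leaving out a replicate gave 0 to 6 members for UPF1-1 against GFP, 0 to 3 for UPF1-1 against UPF1-2, 23 to 34 with UPF1-1 IP, 24 to 33 with UPF1-2 IP and 0 to 14 in the isoform difference. Leaving out GFP replicate 3, an alternative added after the data were seen, gave 1 for UPF1-1 against GFP. WDR75 in UPF1-2 against GFP, at 0.45 and not called, ran from -0.084 (without replicate 3) to 0.81 (without replicate 2) when a replicate was left out and was -0.12 without GFP replicate 3. The count of members called stayed within 1.5 times under another pseudocount (0.1 or 1), equal upper quartiles and no filter in all 6 comparisons, but the genes called changed in part. UPF1-1 against UPF1-2 lost NOP2, NOP56 and RRP9 of its 6 at a pseudocount of 0.1, NOP2 and RRP9 with equal upper quartiles, and NOP56 and UTP20 with no filter. The isoform difference lost UTP14A, UTP18, UTP6 and WDR3 of its 12 with equal upper quartiles and WDR3 at a pseudocount of 0.1. UPF1-1 IP lost UTP6 with equal upper quartiles, PNO1, UTP6 and WDR75 at 0.1 and NPM1, PES1 and UTP14A at 1. UPF1-2 IP lost UTP14A with equal upper quartiles, GNL3, NOLC1, PNO1 and UTP14A at 0.1 and NOB1 and RRP1 at 1. In both IPs every call lost at 0.1 was above the median and every call lost at 1 was below it. Where members near the median gene fell in the IPs thus depended in part on the pseudocount. Over all genes, equal upper quartiles turned the split of higher and lower calls in the isoform difference to 846 and 459, against 530 and 750, and for UPF1-1 against GFP to 638 and 976, against 781 and 726, and for UPF1-1 against UPF1-2 to 347 and 591, against 512 and 375. Leaving out the block took the count over all genes to 16 from 1507 for UPF1-1 against GFP and to 0 from 1280 in the isoform difference. The cause of these losses was not tested. GAR1, with about 223 estimated counts as a geometric mean in the authors' deposited table, was the least deeply measured member. The isoform difference has 3 values per gene, and its calls depend on them.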
